A study of Mus musculus with 108 samples.

Results

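The genes described here encode the pore-forming and auxiliary subunits of potassium, voltage-gated sodium and voltage-gated calcium channels, and the question was which chromatin states they carry in the mouse liver at different ages and diets. Members were the autosomal protein-coding RefSeq genes whose symbol begins with Kcn, with Cacn, or with Scn followed by a digit, without Kcnq1 and Kcnk9, and 129 of the 20021 autosomal protein-coding genes with a curated transcript met this rule. A further 3 such genes lie on chromosome X and were left out. The rule uses gene names and positions only, and the family was picked with earlier results of these data known.

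The study immunoprecipitated H3K4me3, H3K27me3, H3K27ac and H3K4me1 from the livers of female C57BL/6 mice, which had been fixed in formalin and embedded in paraffin. The SD 3m group was fed a standard diet and was 3 months old (8 mice, 30 libraries), the SD 12m group had the same diet at 12 months (8 mice, 29 libraries), and the CR 12m group was 12 months old under 30% caloric restriction (9 mice, 29 libraries). The authors merged the libraries of a group and assigned 1 of 8 chromatin states to every bin of 200 bp with ChromHMM, a hidden Markov model that reads which marks are present. With 1 segmentation per group, the variation among mice could not be set against any difference between groups, and both comparisons with SD 3m rest on the same segmentation of SD 3m.

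States are given here in 5 classes. States 1 and 2 are active and flanking transcription start site (TSS) states, states 3 and 4 are active enhancers, state 5 is the poised enhancer, state 6 is repressed Polycomb chromatin with H3K27me3 alone, state 7 has weak signal and was assigned by the authors to repeats and lamina-associated domains, and state 8 is quiescent, with none of the 4 marks. The TSS bin is the bin that holds the start of the longest curated transcript. Merged depth per group is unknown. H3K27me3 came from 7 libraries for SD 3m, 8 for SD 12m and 6 for CR 12m, and state 6 covered 8.26%, 12.4% and 9.42% of the autosomes in the same order. The part of these differences in the results below was not tested.

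Channel subunits of these families set the membrane potential and the action potentials of neurons and of heart and skeletal muscle. Most of them are transcribed little in hepatocytes, which do not fire action potentials. Polycomb repressive complex 2 writes H3K27me3 over genes of other lineages, often at CpG-rich promoters, and can spread the mark over broad domains. A segmentation of whole liver cannot tell a mark carried by few cells at a high level from a mark carried by many cells at a low level.

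The labelled tissue was checked with marker genes. The TSS bins of all 7 hepatocyte markers found (Alb, Apoa1, Apob, Cps1, Hnf4a, Fgb and Serpina1a) lay in states 1 to 5 in all 3 groups. Of the 4 neuron markers, Snap25, Syt1 and Stmn2 were in state 6 in every group and Rbfox3 was quiescent in SD 3m and in state 6 in SD 12m and CR 12m. Of 4 muscle markers, 2, 3 and 2 were in state 6 in SD 3m, SD 12m and CR 12m. Markers of other liver cells also differed between groups, and in the same group order state 6 held 1, 3 and 2 of 3 Kupffer cell markers, 0, 2 and 1 of 3 stellate cell markers and 1, 1 and 2 of 3 lymphocyte markers. It held none of the 3 markers of sinusoidal endothelium or of cholangiocytes in any group. The part of other cell types in the results below was not tested.

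The following promoters show the range of sequence behind the states. Each runs from 250 bases before to 50 bases after the RefSeq start in GRCm38.p6, in the direction of transcription, with every CG in capitals. Kcnk5 was the only member with a TSS class state in all 3 groups, Scn8a was in state 6 in all 3, Cacng2 and Kcna10 were quiescent in SD 3m and in state 6 in both 12-month groups, and Cacna1c was quiescent in all 3.
Kcnk5 promoter (chr14:20181733-20182032, minus strand): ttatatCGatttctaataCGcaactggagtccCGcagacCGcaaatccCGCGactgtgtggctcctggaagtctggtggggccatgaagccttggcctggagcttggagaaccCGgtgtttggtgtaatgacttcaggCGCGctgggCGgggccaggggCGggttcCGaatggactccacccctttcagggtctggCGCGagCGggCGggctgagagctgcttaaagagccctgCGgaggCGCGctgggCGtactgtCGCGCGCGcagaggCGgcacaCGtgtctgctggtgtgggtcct
Scn8a promoter (chr15:100870395-100870694, plus strand): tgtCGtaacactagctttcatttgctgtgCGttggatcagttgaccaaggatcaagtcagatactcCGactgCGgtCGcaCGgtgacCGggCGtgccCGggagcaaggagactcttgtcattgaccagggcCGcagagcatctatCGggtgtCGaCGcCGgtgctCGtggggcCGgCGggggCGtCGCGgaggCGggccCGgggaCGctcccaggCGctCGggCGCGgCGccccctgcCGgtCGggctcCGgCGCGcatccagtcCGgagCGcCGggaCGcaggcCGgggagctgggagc
Cacng2 promoter (chr15:78119231-78119530, minus strand): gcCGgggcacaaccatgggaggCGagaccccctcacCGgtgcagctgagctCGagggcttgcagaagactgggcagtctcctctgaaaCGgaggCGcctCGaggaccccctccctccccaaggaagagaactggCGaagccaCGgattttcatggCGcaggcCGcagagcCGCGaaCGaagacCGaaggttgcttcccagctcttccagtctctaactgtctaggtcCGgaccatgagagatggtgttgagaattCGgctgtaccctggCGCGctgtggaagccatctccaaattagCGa
Kcna10 promoter (chr3:107182893-107183192, plus strand): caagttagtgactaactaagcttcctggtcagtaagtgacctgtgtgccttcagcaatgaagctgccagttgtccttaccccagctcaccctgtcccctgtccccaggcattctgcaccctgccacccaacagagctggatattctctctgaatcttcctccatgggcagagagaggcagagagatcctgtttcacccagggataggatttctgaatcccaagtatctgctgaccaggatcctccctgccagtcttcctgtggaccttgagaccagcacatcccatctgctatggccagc
Cacna1c promoter (chr6:119196360-119196659, minus strand): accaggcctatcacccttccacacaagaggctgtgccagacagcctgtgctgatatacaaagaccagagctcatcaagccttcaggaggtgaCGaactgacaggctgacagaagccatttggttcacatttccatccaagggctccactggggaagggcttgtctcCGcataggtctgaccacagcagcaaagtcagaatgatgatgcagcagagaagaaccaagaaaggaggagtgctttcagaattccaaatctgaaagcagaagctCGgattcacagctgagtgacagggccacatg

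These promoters hold 26, 38, 20, 0 and 3 CG in the order printed. Cacng2 and Kcna10 thus took the same path through the groups with 20 and with no CG. Over all members the median was 12.0 CG in 300 bases (range 0 to 51), and over all autosomal genes it was 14.0.

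The TSS bins of the channel genes lay mostly in chromatin without active marks. In SD 3m, 59 of 129 (45.7%) were quiescent, 41 (31.8%, Wilson 95% interval over genes 24.4 to 40.2) were in state 6, 22 were in enhancer states and 7 in TSS states. In SD 12m, 80 (62.0%, 53.4 to 69.9) were in state 6 and 21 (16.3%) were quiescent. CR 12m lay between them, with 62 (48.1%, 39.6 to 56.6) in state 6 and 40 (31.0%) quiescent. The intervals treat genes as independent draws, which neighbours that share a stretch are not, and they do not measure variation over mice.

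Among all 20021 genes, 9.97%, 13.8% and 11.5% of TSS bins were in state 6 in SD 3m, SD 12m and CR 12m, and 46.4%, 40.5% and 35.7% were in TSS states. The channel genes had 7 TSS in the TSS states in SD 3m and 1 in each 12-month group. State 7 held 1.92% of the autosomal bins in SD 3m and 11.9% in SD 12m, while at TSS bins of all genes it held 1.56% (SD 3m), 3.68% (SD 12m) and 1.47% (CR 12m). A single member TSS was in it in SD 12m and none in the other groups.

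**Figure D1:**
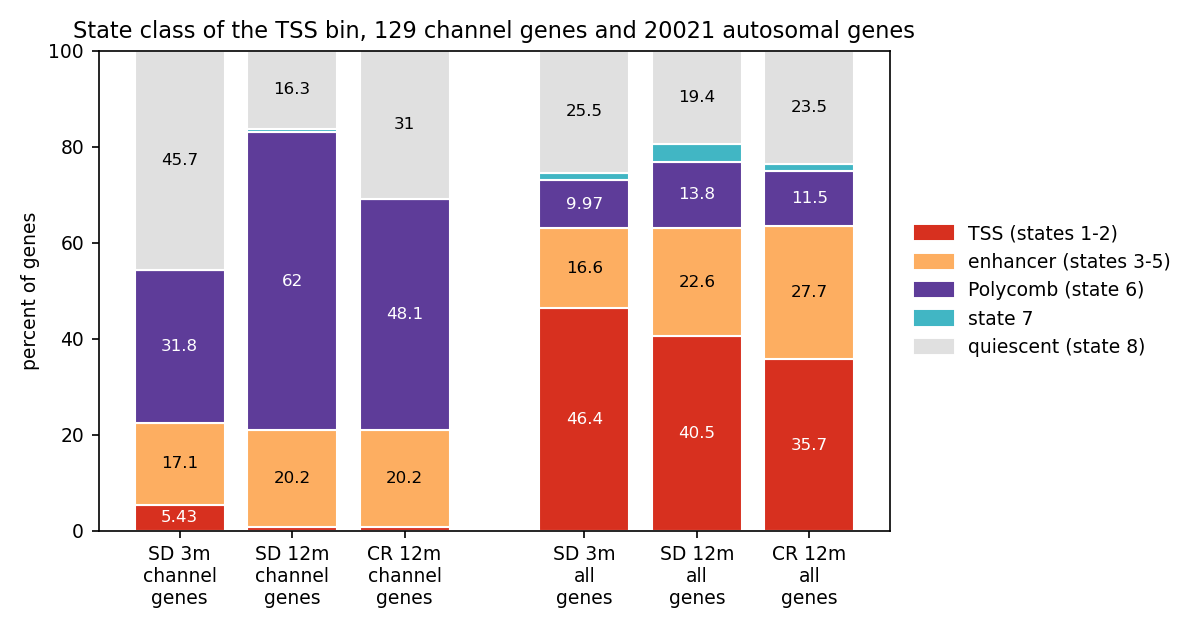
Share of TSS bins (percent of genes, vertical axis) in each state class for the channel genes and for all autosomal protein-coding genes in SD 3m, SD 12m and CR 12m. Among the channel genes the Polycomb class took 31.8%, 62.0% and 48.1%, against 9.97%, 13.8% and 11.5% of all genes.

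The class of the TSS bin differed between SD 12m and SD 3m for 59 members (45.7%, interval 37.4 to 54.3), against 22.9% of all genes. Between CR 12m and SD 3m it differed for 49 members (38.0%, 30.1 to 46.6), against 25.9% of all genes. Between CR 12m and SD 12m it differed for 27 (20.9%, 14.8 to 28.7), close to the 19.9% of all genes. The class was the same in the 3 groups for 62 members (48.1%), differed in SD 3m alone for 40 (31.0%), in SD 12m alone for 18 (14.0%) and in CR 12m alone for 8 (6.20%), and all 3 groups differed for Kcnj2. The same patterns held 66.4%, 13.7%, 7.76% and 10.7% of all genes.

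Most of the difference between ages was a passage from quiescent to Polycomb chromatin. Of the 59 members quiescent in SD 3m, 43 (72.9%, interval 60.4 to 82.6) were in state 6 in SD 12m, against 21.9% of all genes quiescent in SD 3m. In CR 12m it was 26 of 59 (44.1%, 32.2 to 56.7), against 15.7%. The opposite passage, from state 6 to quiescent, was seen at 5 of the 41 members in state 6 in SD 3m for SD 12m and at 8 of 41 for CR 12m, against 18.9% and 26.2% of all genes in state 6 in SD 3m. Of the 80 members in state 6 in SD 12m, 21 (26.2%) were quiescent in CR 12m, near the 27.5% of all genes in state 6 in SD 12m. These are changes of label, not of signal strength. As a mean over all annotated TSS, the paper reports higher and broader H3K27me3 signal in young than in older mice. In its peak analysis, fewer loci showed age or diet effects for H3K27me3 than for H3K4 methylation. Signal at the channel genes was not tested here.

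The path through the 3 groups is given in the map of TSS states and in the next paragraphs. In the order SD 3m, SD 12m and CR 12m, 32 members were in state 6 throughout, 26 were quiescent and then in state 6 in both 12-month groups, and 17 were quiescent, in state 6 in SD 12m and quiescent in CR 12m. Of all genes, 6.10%, 3.04% and 2.48% followed these 3 paths, against 24.8%, 20.2% and 13.2% of the members. A further 17 members (13.2%) were in enhancer states throughout, close to the 12.4% of all genes, and 12 (9.30%) were quiescent throughout, against 14.4%.

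**Figure D2:**
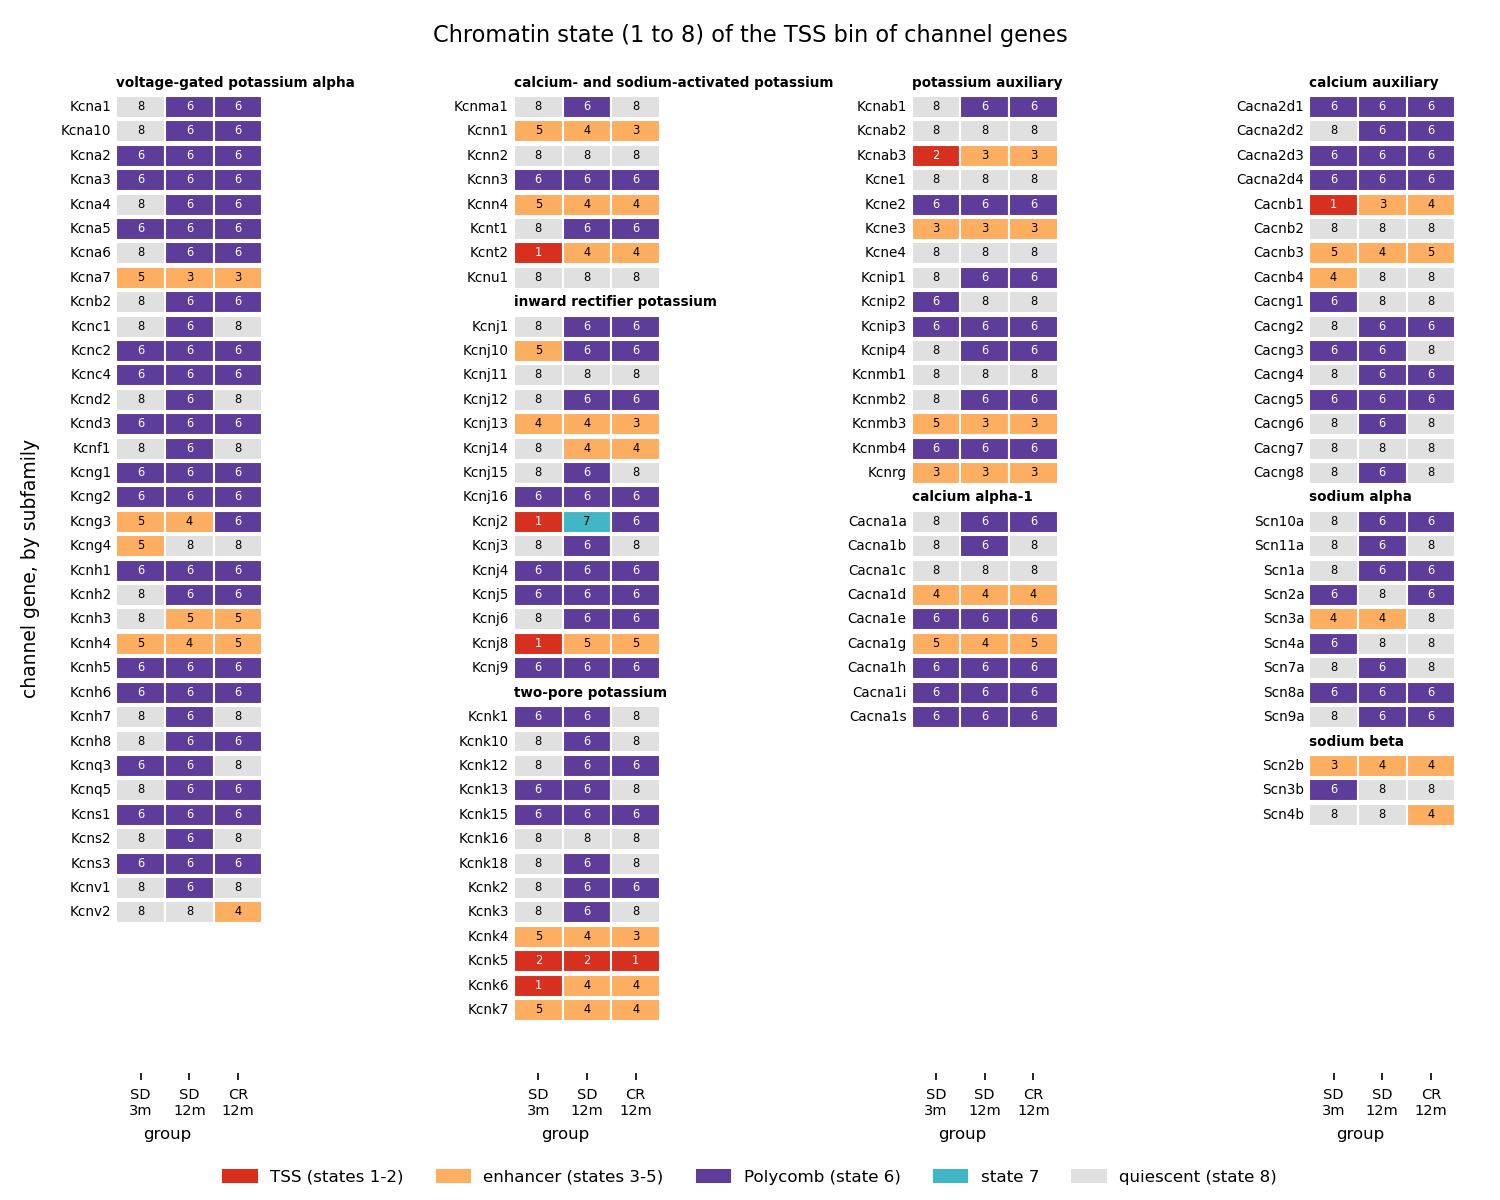
Chromatin state (number 1 to 8, coloured by class) of the TSS bin of the channel genes (rows, by subfamily, a few members not shown) in SD 3m, SD 12m and CR 12m (columns). In the voltage-gated potassium alpha subunits 15, 29 and 23 of 38 were in state 6, and in the sodium beta subunits 1, 0 and 0 of 4.

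The 32 members in state 6 in every group included subunits of potassium, calcium and sodium channels. Among them were the voltage-gated potassium subunits Kcna2, Kcna3, Kcna5, Kcnc2, Kcnc4, Kcnd3, Kcng1, Kcng2, Kcnh1, Kcnh5, Kcnh6, Kcns1 and Kcns3, the inward rectifiers Kcnj4, Kcnj5, Kcnj9 and Kcnj16, the tandem-pore channel Kcnk15, the calcium-activated Kcnn3, the auxiliary Kcne2, Kcnip3 and Kcnmb4, the calcium channel subunits Cacna1e, Cacna1h, Cacna1i, Cacna1s, Cacna2d1, Cacna2d3, Cacna2d4 and Cacng5, and the sodium channel Scn8a.

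The unbroken state 6 stretch over these starts could be long. It was longest, by the mean of the 3 groups, at Kcnd3, which carries the transient outward current of heart and brain, with 31.2 kb in SD 3m, 423.6 kb in SD 12m and 152.2 kb in CR 12m. At Kcna5 it was 72.4, 329.6 and 182.8 kb. At Cacna1e, the R-type calcium channel, it was 105.6, 174.4 and 169.0 kb.

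The stretch was thus longer in both 12-month groups than in SD 3m at these 3 genes. At Scn8a, the main sodium channel of axon initial segments, it was 90.0, 135.8 and 179.6 kb. The order was different at Kcns1, a modifier of other potassium channels, with 190.6 kb in SD 3m, 22.4 kb in SD 12m and 61.2 kb in CR 12m. Also among the 10 longest were Kcna2, Kcna3, Kcng1 and Kcnip3, with means over the groups of 146.7, 132.9, 83.60 and 65.07 kb.

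Over all members in state 6 the median stretch was 22.6 kb in SD 3m (41 members), 31.2 kb in SD 12m (80) and 28.9 kb in CR 12m (62). The medians over all genes in state 6 were 29.2, 32.8 and 31.2 kb.

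The 26 members quiescent in SD 3m and in state 6 in both 12-month groups included Cacna1a, Cacna2d2, Cacng2, Cacng4, Kcna1, Kcna4, Kcna6, Kcna10, Kcnab1, Kcnb2, Kcnh2, Kcnh8, Kcnip1, Kcnip4, Kcnj1, Kcnj6, Kcnj12, Kcnk2, Kcnk12, Kcnmb2, Kcnq5, Kcnt1, Scn1a, Scn9a and Scn10a. At Cacna1a, the P/Q-type calcium channel of nerve terminals (chr8:84415364-84640249), none of the 4 kb around the TSS was in state 6 in SD 3m and all of it was in SD 12m and CR 12m. The same held for Kcna1, a potassium channel of axons, and for Kcna10. At Kcnh2, which carries the rapid delayed rectifier current of the heart (chr5:24319589-24351604), state 6 took 5% of this window in SD 3m and 100% in both 12-month groups.

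The 17 members in state 6 in SD 12m alone, quiescent in the other 2 groups, were Cacna1b, Cacng6, Cacng8, Kcnc1, Kcnd2, Kcnf1, Kcnh7, Kcnj3, Kcnj15, Kcnk3, Kcnk10, Kcnk18, Kcnma1, Kcns2, Kcnv1, Scn7a and Scn11a. Cacng6 and Cacng8, calcium channel gamma subunits that are neighbours on chromosome 7, shared 1 quiescent stretch of 298.0 kb in SD 3m, 1 state 6 stretch of 44.8 kb in SD 12m and 1 quiescent stretch of 178.4 kb in CR 12m. Each is counted in the 17, although the stretches are shared. Kcnf1, a silent subunit that needs partners to form a channel, lay in a quiescent stretch of 253.0 kb in SD 3m, a state 6 stretch of 24.4 kb in SD 12m and a quiescent stretch of 194.8 kb in CR 12m. At Kcnma1, the large-conductance calcium-activated channel of smooth muscle and neurons, state 6 covered 60.0% of the window in SD 12m and none of it in the other groups.

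The 12 members that were quiescent in every group included Cacna1c, Cacnb2, Cacng7, Kcnab2, Kcne1, Kcne4, Kcnj11, Kcnk16, Kcnmb1, Kcnn2 and Kcnu1. Cacna1c, the L-type calcium channel of heart and smooth muscle (chr6:118587240-119196409), began in quiescent stretches of 14.2, 41.4 and 18.6 kb in SD 3m, SD 12m and CR 12m. State 6 took 17.6%, 18.5% and 17.9% of its gene body. Kcnj11, the pore of the ATP-sensitive potassium channel of pancreatic beta cells, began in quiescent stretches of 346.6, 24.6 and 69.4 kb.

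Few members carried TSS states. Kcnk5, an acid-sensitive tandem-pore channel of epithelia, was in state 2 in SD 3m and SD 12m and in state 1 in CR 12m, with TSS states over 60.0%, 50% and 50% of the 4 kb around the TSS. Enhancer states in every group were found at the starts of 17 members, a share near that of all genes, among them Cacna1d, Cacna1g, Cacnb3, Kcna7, Kcne3, Kcnh4, Kcnj13, Kcnk4, Kcnk7, Kcnmb3, Kcnn1, Kcnn4, Kcnrg and Scn2b. Kcne3, an auxiliary subunit of epithelial potassium channels, was in state 3 in all 3 groups, in a stretch of 4.00 kb in SD 3m, 28.4 kb in SD 12m and 31.0 kb in CR 12m. Kcnn4, the intermediate-conductance calcium-activated channel of blood and epithelial cells, was in state 5 in SD 3m and in state 4 in both 12-month groups.

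Of the 17 members in enhancer states throughout, Kcnj13, Kcnk4, Kcnk7 and Kcnrg had their whole gene body in enhancer states in all 3 groups. These 4 genes have lengths of 10.15, 8.854, 2.631 and 5.377 kb. A TSS state in SD 3m and an enhancer state in both 12-month groups was found at Cacnb1, Kcnab3, Kcnj8, Kcnk6 and Kcnt2, 3.88% of the members against 5.15% of all genes. Kcnj8, the pore of the ATP-sensitive channel of vascular smooth muscle, had TSS states over 80.0%, 0% and 0% of its window and enhancer states over 20%, 100% and 100%. Kcnk6 had TSS states over 50%, 20% and 0%.

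The other members each followed a rarer path. Cacng3, Kcnk1, Kcnk13 and Kcnq3 were in state 6 in SD 3m and SD 12m and quiescent in CR 12m, and Cacng1, Kcnip2, Scn3b and Scn4a were in state 6 in SD 3m and quiescent in both 12-month groups. Each of these paths held 3.10% of the members, against 1.18% and 1.27% of all genes. Both paths start from state 6 in SD 3m, which held 31.8% of the members and 9.97% of all genes. The higher shares thus do not show a more frequent loss of state 6 among members. Per start in state 6 in SD 3m, passage to quiescent in CR 12m was not more frequent in members, as given above. Cacnb4 and Kcng4 passed from enhancer states to quiescent by both 12-month groups, Kcnh3 and Kcnj14 from quiescent to enhancer states, and Kcnv2 and Scn4b were quiescent except in CR 12m, where they were in state 4. Each of these pairs was 1.55% of the members, against 0.574%, 1.03% and 0.759% of all genes on the same paths. Kcnj10, the inward rectifier of astrocytes, was in state 5 in SD 3m and in state 6 in SD 12m and CR 12m, with state 6 over 0%, 80.0% and 100% of its window. Kcng3 was in an enhancer state in SD 3m and SD 12m and in state 6 in CR 12m. Scn3a was in state 4 in SD 3m and SD 12m and quiescent in CR 12m. At Scn3a the share of quiescent bins in the window was 5 points higher in CR 12m than in SD 12m, so its change of class rested on the TSS bin itself.

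Kcnj2, the inward rectifier that holds the resting potential of heart and skeletal muscle (chr11:111066164-111076825), was in state 1 at 3 months, and at 12 months in state 7 under SD and in state 6 under CR. State 6 took 15%, 20% and 100% of its window. Only 3 of the 20021 genes followed this path.

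At the 43 members that were quiescent in SD 3m and in state 6 in SD 12m, state 6 covered on average 94.7% of TSS ± 2 kb in SD 12m, and 7 of the 43 (16.3%) had any state 6 bin within 2 kb in SD 3m. The 1119 genes of the whole table with the same difference were much alike in both, with 95.4% and 14.5%. The nearest state 6 bin in SD 3m lay at a median of 11.4 kb (range 0.8 to 719.8 kb) from these 43 starts. It lay at 33.0 kb for the 1119 genes and at 52.0 kb for the 14 members that were quiescent in both groups.

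The SD 12m stretch over these 43 starts had a median of 28.8 kb (3.00 to 329.6 kb). In 22 of the 43 (51.2%) it took in bins that were already in state 6 in SD 3m, and in the other 21 it did not. Over all genes with this difference the share was 40.7%. For the 26 members in state 6 in CR 12m the median was 24.6 kb, and 15 (57.7%) took in state 6 bins of SD 3m, against 46.0% of all such genes.

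The profile around the start had a different shape in SD 3m and at 12 months. In SD 3m, state 6 was more frequent 5 kb before the TSS (37.2% of members) than at it (31.8%) or 5 kb after it (26.4%). In SD 12m it was more frequent at the TSS than on either side, with 50.4%, 62.0% and 54.3% at the same 3 positions, and CR 12m gave 38.8%, 48.1% and 44.2%. Among all genes the values were 14.9%, 9.97% and 10.4% for SD 3m, 13.4%, 13.8% and 12.7% for SD 12m, and 11.7%, 11.5% and 11.0% for CR 12m. The mean share of TSS ± 2 kb in state 6 was 30.5% ± 42.9 (SD over 129 genes) for SD 3m, 60.0% ± 46.4 for SD 12m and 47.6% ± 48.9 for CR 12m, against 10.5%, 13.8% and 11.6% over all genes.

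**Figure D3:**
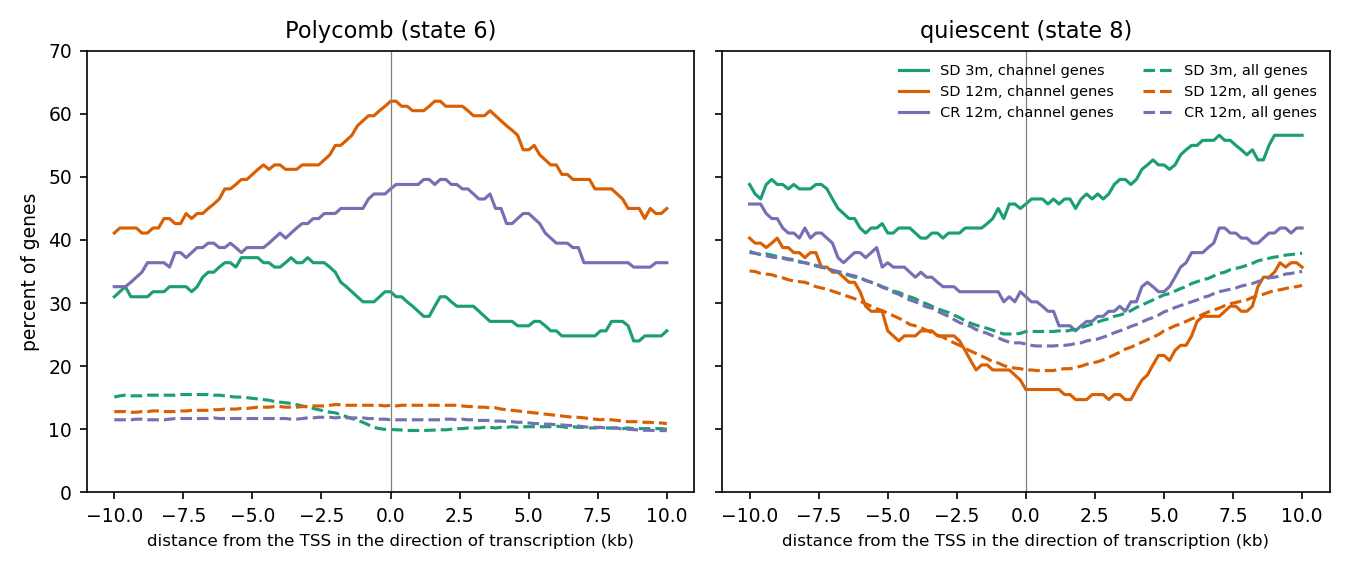
Percent of genes (vertical axis) in state 6 (left) and in the quiescent state (right) by distance from the TSS in kb, for the 129 channel genes (solid) and all 20021 genes (dashed) in each group. At the TSS the channel genes stood at 31.8% (SD 3m), 62.0% (SD 12m) and 48.1% (CR 12m) in state 6.

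The subfamilies were not alike. Voltage-gated potassium channels open on depolarisation and repolarise the membrane, and the 38 alpha subunits counted here include silent ones such as Kcnf1. Of these 38, 6 were in enhancer states in each group. State 6 held 15 (SD 3m), 29 (SD 12m) and 23 (CR 12m) of the 38 starts. Over all genes it held 9.97%, 13.8% and 11.5%. Among the 15 inward rectifiers, which hold the resting potential, it was 4, 10 and 9. Among the 13 tandem-pore channels, which carry background potassium current, it was 3, 8 and 3. The tandem-pore channels thus had equal counts in SD 3m and CR 12m, but not all of the same genes. Those in state 6 were Kcnk1, Kcnk13 and Kcnk15 in SD 3m and Kcnk2, Kcnk12 and Kcnk15 in CR 12m. Of all genes in state 6 in SD 3m, 26.2% were quiescent in CR 12m. With 3 members in each group, nothing is read from this turnover. The inward rectifiers had nearly equal counts in SD 12m and CR 12m. This difference between subfamilies was not tested.

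Among the 8 calcium- and sodium-activated potassium channels 1, 3 and 2 were in state 6, and among the 16 potassium channel auxiliary subunits 4, 7 and 7. The calcium channel alpha-1 subunits, which form the pore, gave 4, 6 and 5 of 9, and the 16 auxiliary calcium channel subunits gave 6, 10 and 7. The 10 sodium channel alpha subunits, which carry the upstroke of the action potential, gave 3, 7 and 6. The 4 beta subunits, adhesion-like partners of the sodium channel pore, gave 1, 0 and 0, and Scn2b was in an enhancer state in every group.

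Several members are neighbours, so their states are not independent. Within 1 Mb of another member lay 56 of the 129, in 22 clusters. The genes Kcna5, Kcna1 and Kcna6 on chromosome 6, which encode potassium channels of axons and heart, began in state 6 in 1 of 3 cases in SD 3m and in 3 of 3 in both 12-month groups. The region from the first to the last of these genes was 35.1% in state 6 in SD 3m, 100% in SD 12m, as a single stretch of 329.6 kb, and 96.1% in CR 12m.

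The sodium channel genes Scn10a and Scn11a on chromosome 9, of pain-sensing neurons, were both quiescent at the TSS at 3 months, and both carried state 6 in SD 12m. Under CR the TSS of Scn10a carried state 6 and that of Scn11a was quiescent. State 6 took 13.9%, 71.1% and 80.8% of the gene body of Scn11a in the order SD 3m, SD 12m and CR 12m.

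The cluster of Scn3a, Scn2a, Scn1a, Scn9a and Scn7a on chromosome 2 was 6.97%, 30.2% and 30.0% in state 6. Scn1a, a sodium channel of inhibitory neurons, and Scn9a, of pain-sensing neurons, were quiescent in SD 3m within a shared stretch of 367.6 kb and in state 6 in both 12-month groups. The TSS bin of Scn2a, of excitatory neurons, was in state 6 in SD 3m and CR 12m and quiescent in SD 12m. Within its gene body, state 6 was found in every group, in SD 12m for example from 232.00 to 252.20 kb of the plotted region. Scn7a was in state 6 in SD 12m only.

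**Figure D4:**
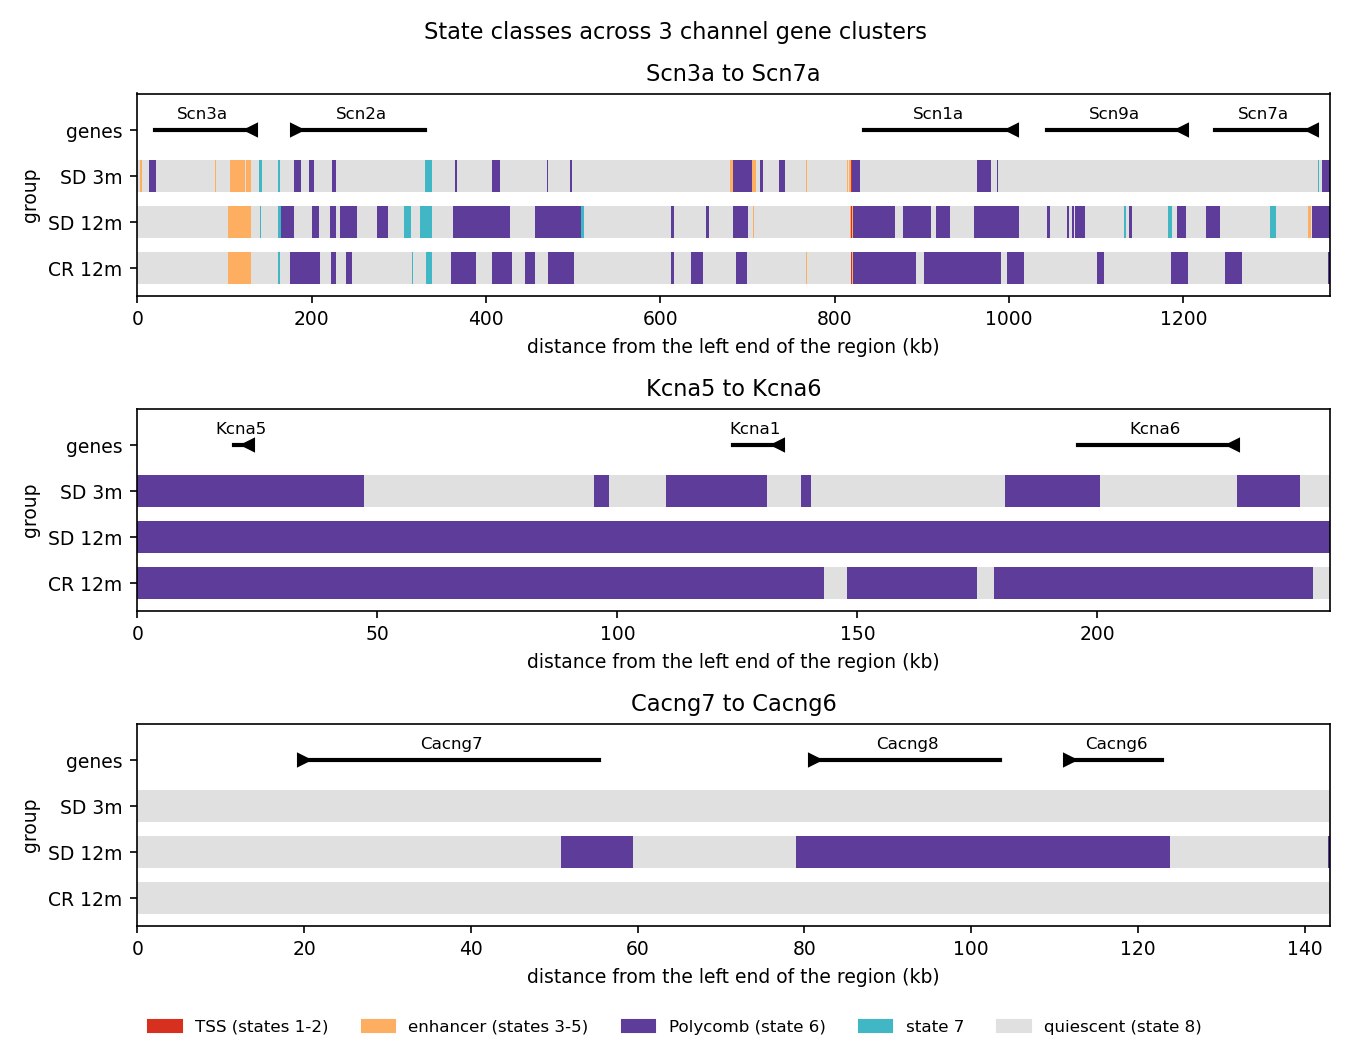
State classes along 3 channel gene clusters in SD 3m, SD 12m and CR 12m, by distance in kb from the left end of the plotted region, with genes as black lines and arrowheads at their TSS. The region of Kcna5, Kcna1 and Kcna6 was 35.1%, 100% and 96.1% in state 6, that of Scn3a to Scn7a 6.97%, 30.2% and 30.0%, and that of Cacng7 to Cacng6 0%, 51.1% and 0%.

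A region on chromosome 7 differed between the 12-month groups. The region of the gamma subunits Cacng7, Cacng8 and Cacng6 had no state 6 in SD 3m, 51.1% in SD 12m and none in CR 12m. In the clusters of Kcne2, Cacng1, Scn2b, Kcnh6 and Cacnb3 the state 6 share was lower in both 12-month groups than in SD 3m. From SD 3m to SD 12m and CR 12m it was 34.4%, 4.15% and 3.86% at Kcne2 and Kcne1. At Cacng1, Cacng4 and Cacng5 it was 57.2%, 40.1% and 40.7%. In the other clusters it was equal or higher in SD 12m.

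Across gene bodies the channel genes also held more state 6 at 12 months. Among the 107 members of 10 kb or more, the state 6 share of the gene body was higher by 20 points or more in SD 12m than in SD 3m for 33 (30.8%), against 7.16% of all genes of this length, and lower by as much for 9 (8.41%), against 5.03%. In CR 12m it was higher for 28 (26.2%), against 5.56%, and lower for 10 (9.35%), against 5.24%. Between the 12-month groups it was lower by 20 points or more in CR 12m for 16 (15%), against 4.41%, and higher by as much for 7 (6.54%), against 2.56%. The median difference was 7.89 points in SD 12m and 2.61 points in CR 12m, and 0 over all genes in both. A fall of 20 points is possible only from a share of 20% or more. Over genes of any length, the mean share in SD 3m was 20.8% for members and 8.81% for all genes. In SD 12m it was 34.9% and 10.9%. The part of this starting level in the falls was not tested.

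The mean share of the gene body in state 6 over the 129 members was 20.8% (SD 3m), 34.9% (SD 12m) and 29.3% (CR 12m), against 8.81%, 10.9% and 9.19% over all genes. Cacng6 and Cacng8 stood at 100% in SD 12m and at 0% in the other groups. Kcnj4, an inward rectifier of forebrain neurons (chr15:79483714-79505241), stood at 7.34%, 100% and 100%. Kcnc4, a fast potassium channel of the chromosome 3 cluster, stood at 10.6%, 100% and 50%.

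These 4 genes were all under 25 kb long, so that 1 stretch could cover them whole. Kcnh2 stood at 0%, 87.7% and 51.2%, and Kcna6 at 14.7%, 100% and 100%. The largest differences in CR 12m after Kcnj4 and Kcna6 were at Scn1a (10.1% in SD 3m, 74.6% in SD 12m, 90.3% in CR 12m), Scn10a (25.8%, 99.3% and 100%) and Cacng2 (29.6%, 92.5% and 100%). Cacng2 encodes stargazin, a partner of AMPA receptors.

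Lower shares were fewer. Cacng1, the gamma subunit of the skeletal muscle calcium channel, stood at 80.6% in SD 3m and 0% in both 12-month groups. Scn3b stood at 37.2%, 0% and 0%. Cacna1g, a T-type calcium channel of pacemaker cells, stood at 51.5%, 0% and 16.4%, while its enhancer share was 29.7%, 88.2% and 76.1%. Scn4b stood at 73.1%, 39.7% and 0%, while its enhancer share was 21.8%, 33.3% and 100%. Kcng2 stood at 84.6%, 25.1% and 51.4%, and Cacng3 at 60.1%, 57.1% and 20.7%.

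**Figure D5:**
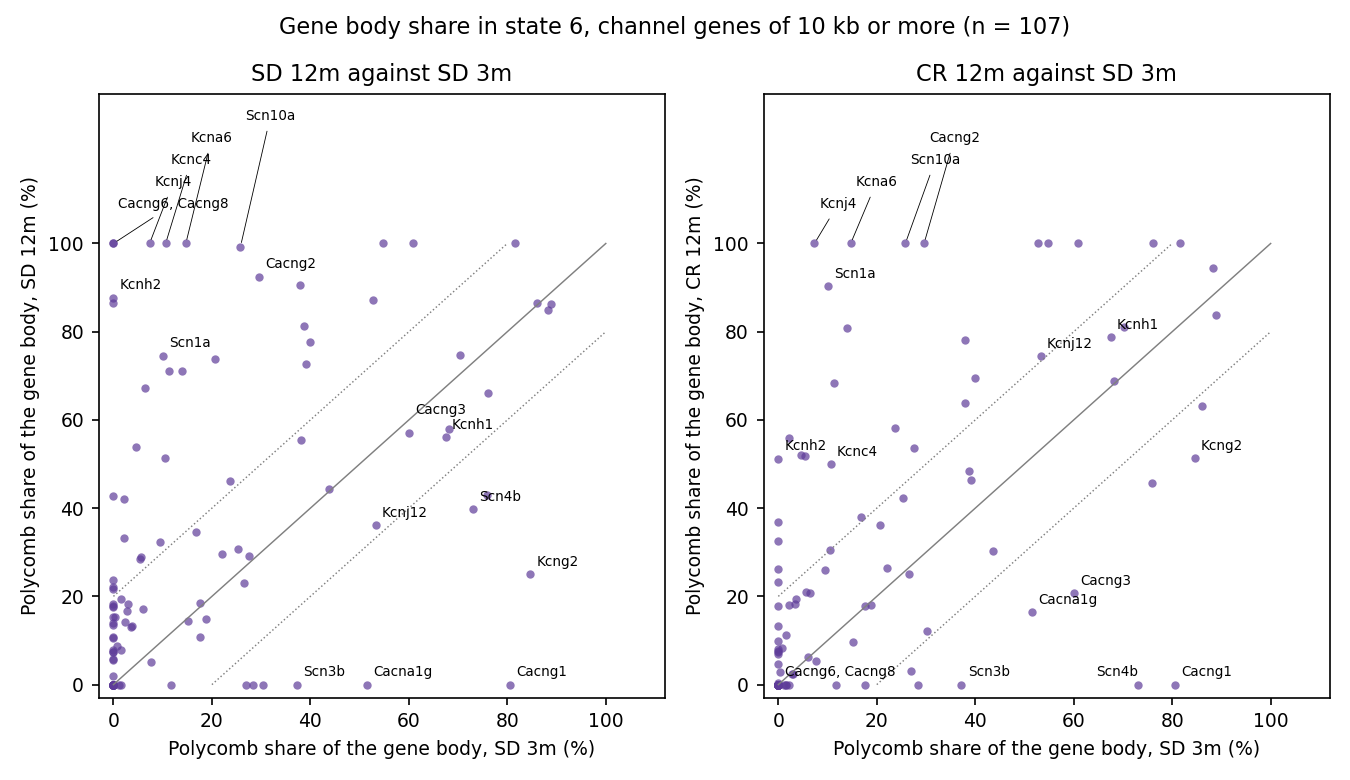
Share of the gene body in state 6 (percent) in SD 12m (left) and CR 12m (right) against SD 3m for the 107 channel genes of 10 kb or more, 1 point per gene, with the line of equality and dotted lines at 20 points above and below it. Above the upper dotted line lay 33 genes in SD 12m and 28 in CR 12m, and below the lower one 9 and 10.

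State 7 was also followed across gene bodies. Its share of the gene body was higher by 20 points or more in SD 12m for 4 members (3.74%), against 2.14% of all genes of 10 kb or more, and in CR 12m for none, against 0.685%. The 4 were Kcnj3, a muscarinic-gated inward rectifier of the atrium, with 0% (SD 3m), 49.1% (SD 12m) and 8.62% (CR 12m), Kcnh7 (0%, 33.0% and 1.5%), Kcnc2 (0%, 25.9% and 6.42%) and Kcnd2 (0%, 23.0% and 5.32%). These 4 genes are 162.2, 481.3, 196.3 and 514.5 kb long. Over the 42 members of 100 kb or more the mean state 7 share in SD 12m was 5.26% ± 10.3 (SD over genes), against 4.41% ± 11.7 over all genes of that length, a difference well within the spread over genes. Kcnmb4 stood at 9.32%, 26.9% and 21.5%, and Kcnip4, of 1135 kb, at 0%, 16.7% and 1.76%.

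The channel genes were longer than other genes, and their share of CpG-rich promoters was not far from that of all genes. Their median length was 42.7 kb, against 16.9 kb for all genes, and 42 (32.6%) were 100 kb or longer, against 11.0%. A promoter was called CpG-rich where TSS ± 500 bp had at least 50% GC and an observed to expected CpG ratio of at least 0.6, which held for 54 members (41.9%) and 49.1% of all genes. Among TSS quiescent in SD 3m the order was the other way, with 25 of 59 members CpG-rich (42.4%, median ratio 0.532) against 13.6% of all genes (median ratio 0.195).

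The passage from quiescent to state 6 was therefore also compared within like genes. With a CpG-rich start, 19 of 25 members (76.0%) were in state 6 in SD 12m against 47.3% of all such genes, and 12 of 25 (48.0%) in CR 12m against 33.8%. Without one, it was 24 of 34 (70.6%) against 17.9% in SD 12m and 14 of 34 (41.2%) against 12.8% in CR 12m. In genes of 100 kb or more it was 22 of 25 (88.0%) against 50.6% in SD 12m and 15 of 25 (60.0%) against 34.8% in CR 12m. The members stood above all genes in each of these classes, and the gap was narrower in CpG-rich starts than in the others. Whether length and composition together account for the gap was not tested.

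The starts were also searched for the RE1 element, which the repressor REST binds at neuronal genes outside the nervous system. The search took the letters TTCAGCACC, a gap of 2 bases and GGACAG on both strands within 2 kb of the TSS. An exact match was found at Kcnh4 and Scn2a (1.55% of members) and at 0.205% of all genes, a match with at most 1 mismatch at 7 members (5.43%) and 0.699% of all genes, and with at most 2 mismatches at 10 (7.75%) and 2.42%. The 7 sites are printed below 5′ to 3′ from GRCm38.p6, with the matching letters in capitals.
Kcnh4 (chr11:100759011-100759027, minus strand, 759 bases after the TSS): TTCAGCACCctGGACAG
Scn2a (chr2:65619964-65619980, plus strand, 797 bases before the TSS): TTCAGCACCacGGACAG
Cacna1b (chr2:24762083-24762099, plus strand, 1061 bases after the TSS): gTCAGCACCacGGACAG
Kcnj6 (chr16:94995719-94995735, minus strand, 1969 bases after the TSS): TTCAGCACCaaGGcCAG
Kcnk12 (chr17:87798584-87798600, plus strand, 598 bases before the TSS): gTCAGCACCgcGGACAG
Kcnt1 (chr2:25864076-25864092, minus strand, 289 bases after the TSS): cTCAGCACCgcGGACAG
Scn3b (chr9:40269744-40269760, minus strand, 536 bases after the TSS): cTCAGCACCacGGACAG

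The states at these 7 starts differed. Kcnj6, Kcnk12 and Kcnt1 were quiescent in SD 3m and in state 6 in both 12-month groups, and Cacna1b was in state 6 in SD 12m only. Scn3b was in state 6 in SD 3m only, Scn2a in SD 3m and CR 12m, and Kcnh4, a brain potassium channel, was in enhancer states in all 3 groups. Cacng3, Kcnh7 and Kcnh8 matched with 2 mismatches. A match of letters does not show that the factor was bound.

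Other ion transport genes outside the naming rule (40 pumps, intracellular calcium channels, chloride channels and others) had 5, 9 and 8 TSS in state 6 in SD 3m, SD 12m and CR 12m, and 25, 24 and 25 in states 1 to 5. Of the 10 that were quiescent in SD 3m, 4 were in state 6 in SD 12m (Hcn4, Nalcn, Ryr3 and Atp2b2) and 5 in CR 12m (among them Hcn4, Ryr1, Ryr3 and Atp2b2). Hcn4 is the pacemaker channel of the sinoatrial node and Ryr1 the calcium release channel of skeletal muscle.

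The 94 neurotransmitter receptor genes (nicotinic, muscarinic, GABA, glycine, glutamate, serotonin, dopamine and adrenergic receptors, chosen after the values of the channel genes were seen) had 28, 54 and 42 TSS in state 6, or 29.8%, 57.4% and 44.7%. Of their 53 TSS quiescent in SD 3m, 32 (60.4%) were in state 6 in SD 12m, and CR 12m had 23 (43.4%). The shares of the channel genes were 72.9% and 44.1%, and the difference between the lists was not tested.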

How the data were processed

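The deposited files hold, per the file headers and the study's methods, 1 state label from 1 to 8 for each of 13168874 bins of 200 bp in mm10. The authors aligned reads with BWA 0.6.2-r126, handled them with SAMtools 0.1.18, merged the libraries of each group and trained a ChromHMM model, so merging, the threshold for a present mark and the smoothing of the model are already in the labels, and the read depth behind a label is unknown. SD 6m was not analysed here.

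Labels were read at RefSeq genes of GRCm38.p6, the same build, with Python 3.11.15, numpy 2.4.6, scipy 1.17.1, pandas 2.3.3 and matplotlib 3.10.9. The TSS was that of the longest curated transcript by genomic span. Window shares used bins centred within 2 kb of the TSS, and gene body calls required a difference of 20 points in genes of 10 kb or more. No test across mice was possible with 1 segmentation per group. Counts are given beside those over all autosomal genes, with Wilson 95% intervals over genes as a description. Promoter sequences came from RefSeq, and 92 of 129 members had one at the TSS used. The functions were checked on simulated segmentations.

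Genes named individually were chosen by a rule (the active, the longest state 6, the largest differences of class and of gene body share, and a list of well-known channels), with ties broken alphabetically, and a few genes are counted but not reported here by name. The members and lists were chosen with earlier results of these data known. Alternatives were other transcripts, other windows, clusters counted once, chromosome X included, single states, other gene body definitions, a difference of 10 points and a CpG ratio of 0.75.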

Additional observations from a re-analysis of the deposited data

Results flagged for a closer look

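At 2 members the state 6 share of the gene body differed from SD 3m in opposite directions in the 12-month groups, by 10 points or more in each. These 2 are 1.55% of the 129 members, against 0.699% (140) of all 20021 genes, and with so few members nothing is read from this. At Kcnj12, an inward rectifier of muscle and brain, the share was 53.3% (SD 3m), 36.1% (SD 12m) and 74.5% (CR 12m), a difference of -17.3 points in SD 12m and 21.2 points in CR 12m. At Kcnh1, a potassium channel of the ether-à-go-go family, it was 67.5%, 56.1% and 78.8%, a difference of -11.3 points and 11.3 points. The difference between the diets was not tested, since each group has 1 segmentation. The TSS of Kcnh1 was in state 6 in all 3 groups, and that of Kcnj12 was quiescent in SD 3m and in state 6 in both 12-month groups.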

How the results depend on the processing

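Of 130 values recomputed for 28 results, 125 stayed within the interval over genes, or within 1.5 times for gene body counts, and 5 moved. Pooled over bins, which gives long genes more weight, the gene body share of state 6 in SD 3m was 13.8% in place of 20.8%. With a gene body threshold of 10 points in place of 20, SD 12m had 50 members higher in state 6 (33 at 20 points). These were 46.7% of the 107 members of 10 kb or more, against 9.77% of all genes of that length. In SD 12m 14 were lower in state 6 (9 at 20 points), 13.1% against 7.14%. State 7 was higher in SD 12m for 7 (4 at 20 points), 6.54% against 3.31%. In CR 12m it was higher for 1 (0 at 20 points), 0.935% against 1.34%. Counting each cluster once left 95 members, and leaving out members with another TSS within 2 kb left 127. No paired analysis was possible because each group has a single segmentation of merged libraries, which carries no replicate number. Leaving out a mouse or library could not be run for the same reason. The depth of the merged files limits which bins reach a detected H3K27me3 signal and is unknown.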
